A study of Mus musculus with 426 samples.

Results

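Tumour cells of mouse pancreatic cancer can be sorted by a surface epithelial protein alone or by that protein together with a fluorescent label that the implanted cells carry. The 2 gates compared here were EpCAM+ cells and GFP+EpCAM+ cells of the primary tumour, which were taken from the sort names in the sample labels. A cell was kept if its RNA library had at least 500 detected genes and 10000 counts, which left 25 of 28 EpCAM+ cells and 31 of 33 GFP+EpCAM+ cells, or 56 of the 420 single cells of the series. Mice 1, 2 and 3 gave 11, 8 and 6 EpCAM+ cells and 12, 10 and 9 GFP+EpCAM+ cells. Each cell counted alike within its mouse, and the mouse was the replicate, with n = 3 for each gate.

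All cells of both gates came from 3 male C57BL/6 mice that had received 50000 KPC1199-EGFP cells in matrigel, injected into the pancreas at 6 to 8 weeks of age, with tumours taken after 6 to 8 weeks of growth. KPC1199-EGFP is a cultured line that carries enhanced green fluorescent protein. Dissociated tumours were stained for EpCAM and CD45, sorted with a live/dead dye, and RNA and genomic DNA of each cell were amplified in the same tube (the GTO-seq data). No gate held untreated or tumour-free tissue, the line is a single implanted line, and the host pancreas and immune system remained in place, so the EpCAM+ gate could also hold host epithelium.

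EpCAM is an adhesion protein of simple epithelia, and keratins 8, 18 and 19 form the filaments of ductal cells and of tumours that keep a ductal character. Pancreatic tumours are rich in fibroblasts and macrophages, and tumour cells that lose epithelial features make matrix proteins such as SPARC and collagens themselves. The name of the EpCAM+ gate does not mention GFP, and it does not tell whether GFP-positive cells were left out. The comparison is thus between sorted EpCAM+ cells without and with GFP in the name of the gate. The GFP transcript was not analysed here.

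EpCAM+ cells held 13906 to 9781323 RNA counts with a median of 1027944, and GFP+EpCAM+ cells held 12787 to 9788270 with a median of 2093406. The mouse means of log10 counts were 5.90 ± 0.247 in EpCAM+ cells and 6.16 ± 0.195 in GFP+EpCAM+ cells (SD, n = 3 each), and an exact two-sided permutation test gave p = 0.2, where 0.1 is the smallest value that 3 against 3 mice allow. Detected genes averaged 9421 ± 1830 in EpCAM+ cells and 8488 ± 1433 in GFP+EpCAM+ cells (SD, n = 3 each; exact permutation p = 0.5). Reads of amplified genomic DNA that fall in exons can enter the RNA counts, and olfactory receptor genes, best known from neurons of the nose, served as a gauge of such counts. The 1107 olfactory receptor genes summed to a median of 311 CPM (counts scaled to a library total of 1000000) per EpCAM+ cell and 94.3 CPM per GFP+EpCAM+ cell, and reached 1000 CPM in 10 of 25 EpCAM+ cells and 3 of 31 GFP+EpCAM+ cells. By mouse the medians were 221, 399 and 1422 CPM in EpCAM+ cells and 230, 91.8 and 45.1 CPM in GFP+EpCAM+ cells.

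Both gates were sorted on EpCAM, and both had a higher mean level of Epcam RNA than CD45+ cells, though not every cell held much of it. The level of a gene is given below as the mean over the cells of a mouse of log2(CPM + 1), in the order of mice 1, 2 and 3. Epcam had levels of 7.97, 7.83 and 5.05 in EpCAM+ cells and 7.53, 7.84 and 7.66 in GFP+EpCAM+ cells, against a mean level of 2.55 in CD45+ cells. The gates overlapped, and EpCAM+ mouse 3 was the low value. At 100 CPM or more, Epcam RNA was present in 15 of 25 EpCAM+ cells and 20 of 31 GFP+EpCAM+ cells. As a background for that threshold, 0.361% of pairs of an olfactory receptor and an EpCAM+ cell reached 100 CPM, and 0.0321% of such pairs in GFP+EpCAM+ cells.

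Krt8 had levels of 9.34, 9.01 and 8.94 in EpCAM+ cells and 10.03, 9.37 and 10.64 in GFP+EpCAM+ cells, which did not overlap. The Krt8 difference, EpCAM+ minus GFP+EpCAM+, was -0.92 ± 0.61 (SE) on the log2(CPM + 1) scale, with an adjusted p of 0.47 in limma. Krt19 had levels of 6.77, 9.38 and 8.48 in EpCAM+ cells and 7.86, 8.47 and 10.73 in GFP+EpCAM+ cells, so the gates overlapped. Vim, the intermediate filament of mesenchymal cells, had levels of 6.35, 8.00 and 8.15 in EpCAM+ cells and 6.84, 6.59 and 9.52 in GFP+EpCAM+ cells, also with overlap. Ptprc, which encodes CD45, reached 100 CPM in 0 of 25 EpCAM+ cells and 0 of 31 GFP+EpCAM+ cells, and at least 1 count was present in 12 EpCAM+ cells and 17 GFP+EpCAM+ cells. The sum of 12 leukocyte genes averaged 317 ± 281 CPM in EpCAM+ cells and 191 ± 172 CPM in GFP+EpCAM+ cells, against 12706 ± 344 CPM in CD45+ cells (SD, n = 3 mice each).

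Across the transcriptome the gates were not separated by the test. Of 20323 genes counted in at least 10% of the 56 cells, limma called 0 higher and 0 lower in EpCAM+ cells at an adjusted p of 0.05 (Benjamini-Hochberg over all 20323 genes). At an unadjusted p of 0.05, 2245 genes were higher in EpCAM+ cells and 168 lower, or 11% and 0.827% of the genes tested. edgeR's quasi-likelihood test on the summed counts of each mouse and gate also called 0 genes, with 613 higher and 929 lower at an unadjusted p of 0.05 of 14395 tested. DESeq2 on the same sums called 389 genes higher and 662 lower, or 2.7% and 4.6% of those tested, and in those sums 1 cell held 63.2% of the EpCAM+ counts of mouse 2. Mouse numbers mark the same animal in both gates, and with the mouse as a block limma called 2 genes higher in EpCAM+ cells (Malat1 and Serping1) and 3 lower (Krt18 and Spp1 among them), or 0.00984% and 0.0148% of the genes tested. These 4 genes are described below with their mouse values, Malat1 having been chosen after its values were seen. limma draws the variance of each gene toward that of genes of similar level. The blocked p-values therefore do not measure the spread between the 3 mice alone.

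The lean toward EpCAM+ cells lay in genes of low level. The median difference over all genes was 0.32 on the log2(CPM + 1) scale, and 15285 of 20323 genes (75.2%) had a positive difference. Among 11106 genes with a mean level under 1 the median difference was 0.34, and among 248 genes with a mean level of at least 7 it was -0.63, where 18.5% of differences were positive. The 958 olfactory receptor genes tested had a median difference of 0.32, with 867 positive. Without the cells that held 1000 CPM or more of olfactory receptor counts, which left 15 EpCAM+ cells (2 of them in mouse 3) and 28 GFP+EpCAM+ cells, 0 genes were called, the median difference of all genes was -0.06, and the count at an unadjusted p of 0.05 was 90 higher and 259 lower. The plot of difference against level shows this tilt from low to high genes.

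**Figure D1:**
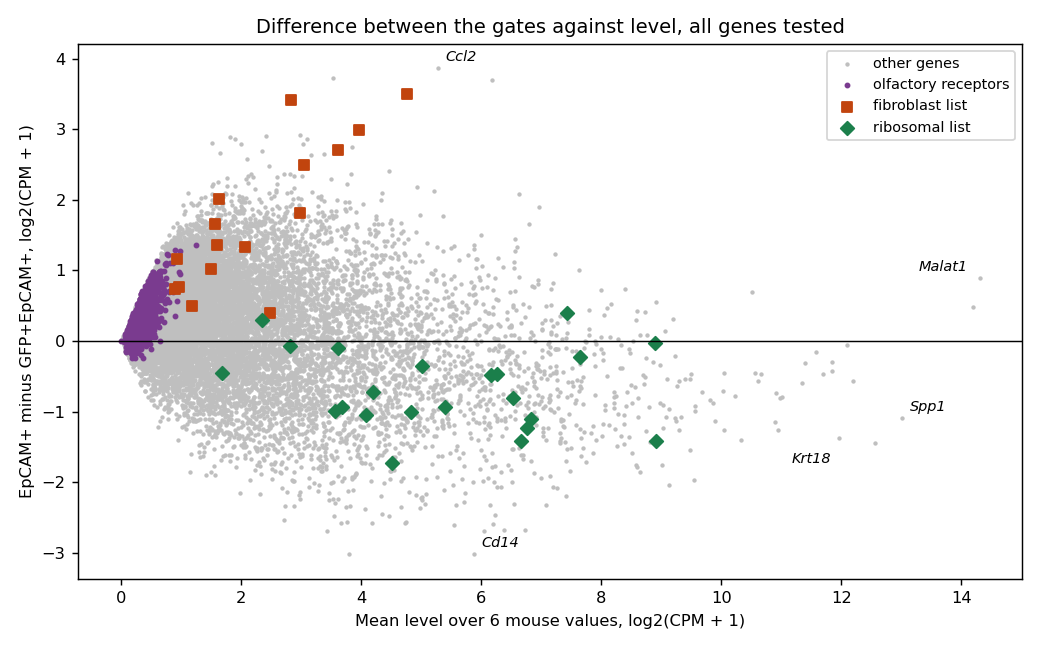
Difference between the gates, EpCAM+ minus GFP+EpCAM+, against the mean level over 6 mouse values, each point being 1 of the 20323 genes tested and both axes on the log2(CPM + 1) scale. Olfactory receptors (purple) sit at low level with a median difference of 0.32, fibroblast genes (squares) lie above 0, and most ribosomal protein genes (diamonds) lie below 0.

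Genes with lower values in EpCAM+ cells included the abundant Spp1 and Pdia3. In the whole table, 319 genes (1.57%) had all 3 EpCAM+ mice below all 3 GFP+EpCAM+ mice. Spp1, which encodes the secreted matrix protein osteopontin that ductal tumours make in quantity, had levels of 12.31, 12.89 and 12.22 in EpCAM+ cells and 13.53, 13.20 and 13.98 in GFP+EpCAM+ cells. Its difference was -1.10 ± 0.25 (SE), the adjusted p in limma was 0.42, and with the mouse as a block it was 0.000251. Without the cells of high olfactory receptor counts the Spp1 difference was -0.67. Krt18 had levels of 10.92, 12.18 and 10.71 in EpCAM+ cells and 13.16, 12.01 and 12.76 in GFP+EpCAM+ cells, so mouse 2 ran against mice 1 and 3 and the gates overlapped. The Krt18 difference was -1.38 ± 0.37 (SE) with an adjusted p of 0.42 in limma, and 0.00353 with the mouse as a block. It was -0.12 without the cells of high olfactory receptor counts and -1.03 without 2 EpCAM+ cells of low chromosome spread, described below.

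Spp1 and the genes named below as lower are 9 of the 12 with the smallest unadjusted p among those whose gates did not overlap and whose mean was at least 10 CPM, and each of the 9 had an adjusted p of 0.42 in limma, so none passed. Pdia3, a disulfide isomerase of the endoplasmic reticulum, had levels of 8.76, 8.52 and 8.43 in EpCAM+ cells and 10.56, 9.96 and 11.08 in GFP+EpCAM+ cells, a difference of -1.96 ± 0.61 (SE). Cd14, a co-receptor for bacterial lipopolysaccharide, had levels of 2.95, 5.81 and 4.35 in EpCAM+ cells and 6.73, 8.39 and 7.06 in GFP+EpCAM+ cells, a difference of -3.02 ± 1.06 (SE). Cd14 is also a macrophage marker, with a mean level of 7.11 in CD45+ cells, and it reached 100 CPM in 6 of 25 EpCAM+ cells and 24 of 31 GFP+EpCAM+ cells. The mean was 78.4 ± 9.77 CPM in EpCAM+ cells and 491 ± 251 CPM in GFP+EpCAM+ cells (SD, n = 3 each), and without the cells of high olfactory receptor counts the difference was -3.89.

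Scamp3, a carrier protein of secretory membranes, had levels of 2.34, 4.30 and 0.22 in EpCAM+ cells and 4.44, 5.75 and 5.76 in GFP+EpCAM+ cells, with EpCAM+ mouse 2 close to the GFP+EpCAM+ values. It reached 100 CPM in 4 of 25 EpCAM+ cells and 16 of 31 GFP+EpCAM+ cells. Isg20, an interferon-induced exonuclease, had levels of 0.79, 2.01 and 1.53 in EpCAM+ cells and 4.03, 3.44 and 4.49 in GFP+EpCAM+ cells, and reached 100 CPM in 0 of 25 EpCAM+ cells and 8 of 31 GFP+EpCAM+ cells. Also among the 9 were Ndfip1, an adaptor of ubiquitin ligases, Npdc1, the cell cycle kinase partner Ccnh and the apoptosis inhibitor Triap1, with differences between -2.70 (Ndfip1) and -1.63 (Triap1).

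**Figure D2:**
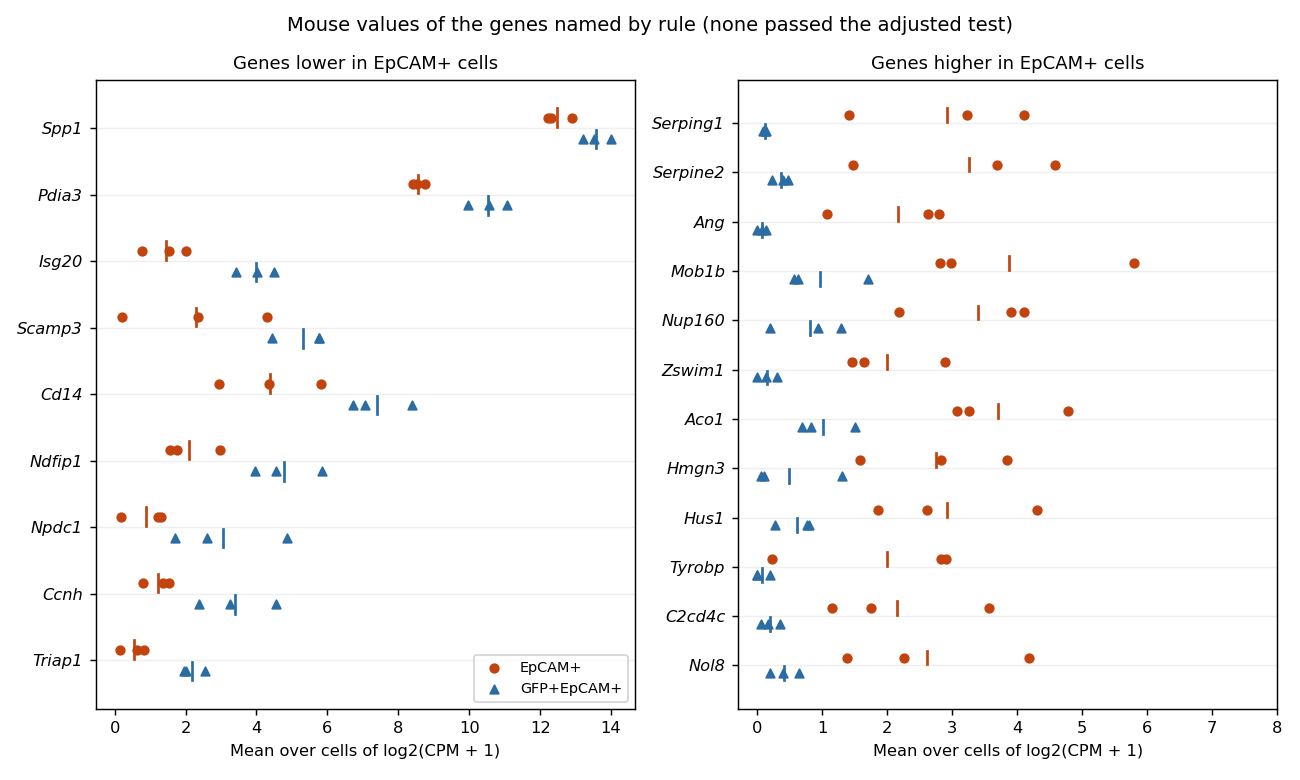
Levels of 21 genes named by rule, with 3 mouse values for EpCAM+ cells (circles) above 3 mouse values for GFP+EpCAM+ cells (triangles), on the log2(CPM + 1) scale with a short line at each mean. Spp1 had EpCAM+ values of 12.22 to 12.89 and GFP+EpCAM+ values of 13.20 to 13.98, while most genes on the right had GFP+EpCAM+ values near 0.

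Most genes with higher values in EpCAM+ cells were of low level. All 3 EpCAM+ mice lay above all 3 GFP+EpCAM+ mice for 3750 genes, which is 18.5% of those tested, and 2488 of these had a mean level under 1. Of all 20323 genes tested, 11106 had a mean level under 1. The share without overlap on this side was 22.4% under 1, 17.5% from 1 to 3 and 4.87% from 3 to 5. Serping1, the inhibitor of complement protease C1, had levels of 1.41, 3.23 and 4.11 in EpCAM+ cells and 0.14, 0.12 and 0.09 in GFP+EpCAM+ cells. Its difference was 2.80 ± 0.66 (SE), with an adjusted p of 0.42 in limma and 0.0444 with the mouse as a block, and it was 1.04 without the cells of high olfactory receptor counts. It had at least 1 count in 17 of 25 EpCAM+ cells and 5 of 31 GFP+EpCAM+ cells, but 100 CPM in 1 EpCAM+ cell and 0 GFP+EpCAM+ cells. Serpine2, a protease inhibitor of the extracellular space, had levels of 1.48, 4.58 and 3.69 in EpCAM+ cells and 0.39, 0.47 and 0.22 in GFP+EpCAM+ cells, a difference of 2.89 ± 0.72 (SE), and the difference was 1.48 without the cells of high olfactory receptor counts.

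Mob1b, a co-activator of the Hippo pathway kinases, had levels of 2.98, 2.81 and 5.80 in EpCAM+ cells and 0.56, 1.70 and 0.62 in GFP+EpCAM+ cells, a difference of 2.90 ± 0.84 (SE). It reached 100 CPM in 6 of 25 EpCAM+ cells and 0 of 31 GFP+EpCAM+ cells, the most of the 12 genes on this side. Tyrobp, the signalling adaptor of myeloid receptors, had levels of 0.23, 2.82 and 2.91 in EpCAM+ cells and 0.00, 0.00 and 0.19 in GFP+EpCAM+ cells, so EpCAM+ mouse 1 stood next to the other gate. The remaining genes were Ang (angiogenin, one of a family of similar ribonucleases), Nup160 of the nuclear pore, Zswim1, the iron-regulated aconitase Aco1, the nucleosome-binding Hmgn3, the DNA damage clamp subunit Hus1, C2cd4c and the nucleolar protein Nol8. Their differences lay between 1.85 (Zswim1) and 2.69 (Aco1), each with an adjusted p of 0.42 in limma, and each reached 100 CPM in 2 or 3 EpCAM+ cells and 0 or 1 GFP+EpCAM+ cells. Malat1, a nuclear long non-coding RNA, had levels of 15.48, 14.48 and 14.29 in EpCAM+ cells and 15.47, 14.08 and 12.03 in GFP+EpCAM+ cells. Most of the Malat1 difference of 0.89 ± 0.37 (SE; adjusted p = 0.42 in limma) lay in mouse 3, and in mouse 1 the gates were level. With the mouse as a block limma gave an SE of 0.13 and an adjusted p of 3.32e-07, which do not reflect agreement among the 3 mice.

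Epithelial genes had differences of both signs, and ductal genes had a negative median. Of 27 epithelial genes tested, 0 passed at the adjusted threshold, 13 had positive and 14 negative differences, and their median was -0.05, beside 0.32 for all genes. The members with an unadjusted p under 0.05 were Krt18 and Cldn3, 2 lower and 0 higher. Cldn3, a tight junction protein, had levels of 3.49, 4.44 and 0.75 in EpCAM+ cells and 5.56, 5.76 and 5.13 in GFP+EpCAM+ cells, without overlap. It reached 100 CPM in 5 of 25 EpCAM+ cells and 17 of 31 GFP+EpCAM+ cells. Of 15 ductal genes 9 had negative differences, with a median of -0.67, and Spp1 and Muc1 were lower at an unadjusted p under 0.05. Over all genes tested 11% were higher and 0.827% lower at that p in limma. Of the 248 genes with a mean level of at least 7, 20 were lower and 1 higher at that p. Krt18, Spp1 and Muc1 are among the genes of that level. Muc1, a membrane mucin, had levels of 7.58, 9.66 and 7.07 in EpCAM+ cells and 7.50, 11.15 and 11.80 in GFP+EpCAM+ cells, so its difference of -2.05 ± 0.82 (SE) came from mice 2 and 3.

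Genes of cell activation and of the secretory pathway had negative medians, and these lists also had high levels. Of 14 immediate early genes, which respond within minutes to growth factors, 12 had negative differences, 3 did not overlap on the lower side, and the median was -1.11 at a median level of 7.46. Over all genes with a mean level of at least 7, 13.7% did not overlap on the lower side. Dusp1, a phosphatase of MAP kinases, had levels of 8.86, 7.99 and 9.28 in EpCAM+ cells and 10.90, 9.36 and 10.51 in GFP+EpCAM+ cells. Ier2 had levels of 6.49, 7.38 and 4.80 in EpCAM+ cells and 8.17, 8.35 and 8.40 in GFP+EpCAM+ cells, with the lowest value in EpCAM+ mouse 3. Of 16 genes of the unfolded protein response, 11 were negative with a median of -0.73, and Pdia4, Pdia6 and Herpud1 did not overlap on the lower side, beside 6.64% of all genes with a mean level from 5 to 7. Pdia4, another disulfide isomerase, had levels of 3.09, 4.11 and 3.69 in EpCAM+ cells and 5.20, 4.84 and 6.35 in GFP+EpCAM+ cells, with an adjusted p of 0.428 in limma.

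Of 22 ribosomal protein genes 20 had negative differences with a median of -0.76, and of 22 genes of oxidative phosphorylation 15 were negative with a median of -0.36. Rpl4 had levels of 8.65, 8.63 and 7.31 in EpCAM+ cells and 9.79, 9.71 and 9.34 in GFP+EpCAM+ cells, without overlap, and a difference of -1.42 ± 0.70 (SE). Without the cells of high olfactory receptor counts the Rpl4 difference was -0.31. Ribosomal protein genes have near-identical copies elsewhere in the genome, which could split their reads. In the whole table the median difference was -0.42 for genes with a mean level from 5 to 7 and -0.63 for genes at 7 or more, which is the background for the negative medians of these lists.

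Fibroblast genes had positive differences, and EpCAM+ mouse 1 had the lowest EpCAM+ level for 14 of 16 genes. Of 16 fibroblast genes tested, 16 had positive differences, 6 did not overlap, 9 had an unadjusted p under 0.05 and 0 passed the adjusted test, with a median of 1.50. Over all genes tested 75.2% had positive differences, 18.5% did not overlap on the higher side and 11% were higher at an unadjusted p under 0.05, with a median of 0.32. Col1a2, a chain of type I collagen, had levels of 1.65, 6.27 and 5.69 in EpCAM+ cells and 0.38, 2.05 and 0.94 in GFP+EpCAM+ cells. EpCAM+ mouse 1 lay within the range of the other gate, and mice 2 and 3 lay above it. The Col1a2 difference was 3.41 ± 0.97 (SE; adjusted p = 0.42 in limma), and 8 of 25 EpCAM+ cells and 1 of 31 GFP+EpCAM+ cells reached 100 CPM. Sparc, a collagen-binding matrix protein, had levels of 3.75, 8.23 and 7.53 in EpCAM+ cells and 0.72, 5.64 and 2.66 in GFP+EpCAM+ cells, with a difference of 3.5 ± 1.20 (SE).

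GFP+ cells of the primary tumour, sorted for the label of the implanted line, also held RNA of the fibroblast list, with a mean sum of 10618 ± 6099 CPM over its 18 genes. The sum averaged 1752 ± 1391 CPM in EpCAM+ cells and 1538 ± 1579 CPM in GFP+EpCAM+ cells, against 547 ± 385 CPM in CD45+ cells (SD, n = 3 mice each). The median cell held 169 CPM in the EpCAM+ gate and 11.3 CPM in the GFP+EpCAM+ gate. Sums above 1000 CPM occurred in 8 of 25 EpCAM+ cells, 5 of them in mouse 2 and 3 in mouse 3, and in 4 of 31 GFP+EpCAM+ cells. One GFP+EpCAM+ cell of mouse 2 (cell 46) stood apart with 28963 CPM, of which Sparc gave 14123 CPM, and it had Epcam at 2.51 CPM, Krt19 at 1.89 CPM, Col1a2 at 0 and 4772682 counts. Without the cell of the highest sum in each gate, a choice made after seeing the data, the sums averaged 1419 ± 1162 CPM in EpCAM+ cells and 582 ± 750 CPM in GFP+EpCAM+ cells (SD, n = 3 mice each). On counts summed over cells the edgeR log2 fold change of Sparc was -3.95, against the positive difference of mouse means.

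Over 18 chemokine and inflammatory genes tested, 11 differences were positive with a median of 0.26, and 3 were higher and 0 lower at an unadjusted p of 0.05. These 3 were Ccl2 and Ccl7, chemokines that draw monocytes, and Cxcl10. Over all genes tested 75.2% of differences were positive with a median of 0.32, and 11% were higher and 0.827% lower at that p in limma. As a list these genes thus did not lean toward EpCAM+ cells more than all genes did. Ccl2 had levels of 4.44, 8.99 and 8.21 in EpCAM+ cells and 0.91, 3.58 and 5.56 in GFP+EpCAM+ cells, and reached 100 CPM in 13 of 25 EpCAM+ cells and 5 of 31 GFP+EpCAM+ cells. The difference was 3.87 ± 1.20 (SE; adjusted p = 0.42 in limma), it was 2.79 without the cells of high olfactory receptor counts, and edgeR on sums gave -1.91. Ccl7 had levels of 1.79, 7.77 and 6.65 in EpCAM+ cells and 0.30, 2.47 and 2.24 in GFP+EpCAM+ cells. GFP+ cells of the primary tumour had a mean Ccl2 level of 8.40, near the EpCAM+ values of mice 2 and 3. Cxcl10, an interferon-induced chemokine for T cells, had levels of 1.66, 2.25 and 3.49 in EpCAM+ cells and 0.30, 1.15 and 0.16 in GFP+EpCAM+ cells, which did not overlap.

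Most leukocyte and macrophage genes had positive differences, while the mouse means of the macrophage sum overlapped between the gates. Of 12 leukocyte genes 12 had positive differences with a median of 1.10, and of 14 macrophage genes 12 were positive with a median of 0.89. Over all genes tested 75.2% of differences were positive, with a median of 0.32. Lyz2, the lysozyme of myeloid cells, had levels of 1.49, 5.52 and 6.25 in EpCAM+ cells and 0.75, 3.28 and 0.85 in GFP+EpCAM+ cells, against 8.89 in CD45+ cells. C1qb, a complement chain made by macrophages, had levels of 0.96, 4.80 and 4.31 in EpCAM+ cells and 0.46, 2.25 and 0.26 in GFP+EpCAM+ cells. Among EpCAM+ mice, both genes were low in mouse 1 and high in mice 2 and 3. By contrast Cd14 ran the other way. The macrophage sum averaged 777 ± 698 CPM in EpCAM+ cells and 1552 ± 1940 CPM in GFP+EpCAM+ cells, against 23551 ± 6885 CPM in CD45+ cells (SD, n = 3 mice each), and the median cell held 167 CPM in the EpCAM+ gate and 482 CPM in the GFP+EpCAM+ gate. One GFP+EpCAM+ cell of mouse 2 (cell 14) held 28761 CPM, above the CD45+ mean, with Lyz2 at 6178 CPM, Cd74 at 15172 CPM, Cd14 at 2581 CPM, Epcam at 78.2 CPM, Ptprc at 0 and 12787 counts in all, the fewest of its gate. Without the cell of the highest sum in each gate the macrophage sums averaged 624 ± 455 CPM in EpCAM+ cells and 627 ± 338 CPM in GFP+EpCAM+ cells (SD, n = 3 mice each). Cd14 is a member of this sum. Over all cells it alone averaged 78.4 ± 9.77 CPM in EpCAM+ and 491 ± 251 CPM in GFP+EpCAM+ cells (SD, n = 3 mice each). In many GFP+EpCAM+ cells Cd14 gave most of the sum, as in cell 10 of mouse 1 (687 of 688 CPM). In others it did not, as in cell 11 of mouse 1 (1.07 of 437 CPM).

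In both gates, summed fibroblast and macrophage CPM had higher medians in cells under 500000 RNA counts than in the others. Under 500000 RNA counts there were 8 EpCAM+ cells (2, 3 and 3 in mice 1, 2 and 3) and 4 GFP+EpCAM+ cells (1, 3 and 0). In EpCAM+ cells the fibroblast sum had a median of 3378 CPM in those 8 cells and 61.3 CPM in the other 17, and Spearman's rho with total counts was -0.82 over 25 cells. The macrophage sum had a median of 1053 CPM in the same 8 cells and 69.98 CPM in the other 17, with a rho of -0.81. In GFP+EpCAM+ cells the fibroblast sum had a median of 455 CPM in the 4 cells under 500000 counts and 10.5 CPM in the other 27. The macrophage sum had medians of 2231 CPM in the same 4 cells and 427 CPM in the other 27. Over the 31 GFP+EpCAM+ cells rho was -0.05 for fibroblast and -0.38 for macrophage genes. In many of these cells Cd14 gave most of the macrophage sum. These values describe cells of the same 3 mice, and total counts enter both axes. The part of RNA counts per cell, of olfactory receptor counts and of RNA from other cells in the differences between gates was not tested, and fewer cells of a type cannot be told apart from less RNA per cell in mouse means.

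**Figure D3:**
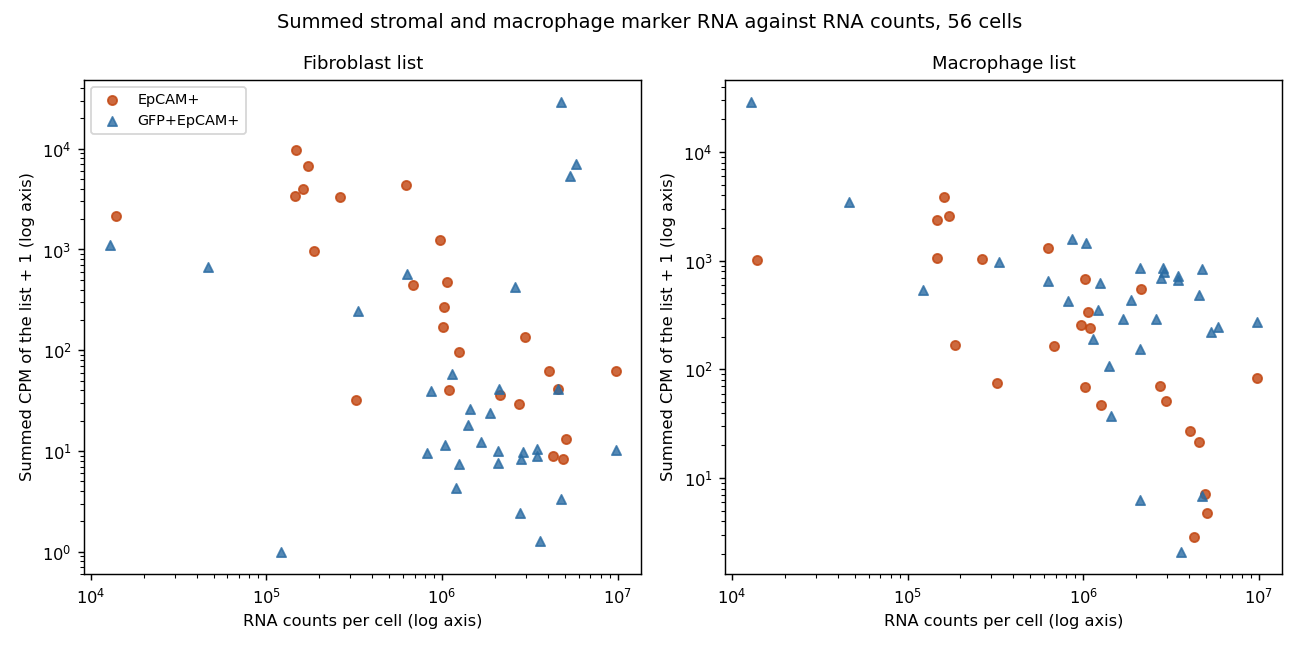
Summed CPM of fibroblast genes (left) and macrophage genes (right), plus 1, against RNA counts per cell on log axes, for 25 EpCAM+ cells (circles) and 31 GFP+EpCAM+ cells (triangles). EpCAM+ cells under 500000 counts had a median fibroblast sum of 3378 CPM, and the highest triangle is the GFP+EpCAM+ cell with 28963 CPM. In many GFP+EpCAM+ cells Cd14 gave most of the macrophage sum.

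The DNA of the same cells had uneven chromosome ratios in nearly all cells of both gates. Counts in 4730 autosomal bins were summed by chromosome, divided by the median share of CD45+ cells and put on a log2 scale, and the SD over the 19 autosomes was taken as the spread of a cell. With at least 50000 DNA counts, 22 EpCAM+ and 27 GFP+EpCAM+ cells could be measured. The spread averaged 0.331 ± 0.0105 in EpCAM+ cells and 0.339 ± 0.0153 in GFP+EpCAM+ cells (SD, n = 3 mice each; exact permutation p = 0.6), against 0.125 ± 0.0559 in CD45+ cells. A spread of 0.25 or more was found in 19 of 22 EpCAM+ cells and 27 of 27 GFP+EpCAM+ cells, and in 6 of 53 CD45+ cells.

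A spread under 0.1 was found in 2 of 22 EpCAM+ cells and 0 of 27 GFP+EpCAM+ cells. Cell 3 of mouse 1 had a spread of 0.0252 from 2205762 DNA counts, with Epcam at 6917 CPM, Krt18 at 844 CPM and Krt19 at 10.7 CPM. Cell 42 of mouse 3 had a spread of 0.0518 from 1132999 DNA counts, with Epcam at 6.84 CPM, Krt18 at 68.4 CPM and Lyz2 at 1894 CPM. Both had Ptprc at 0, and their olfactory receptor sums were 3240 and 10764 CPM. Without these 2 cells limma again called 0 genes, with 1143 higher and 163 lower at an unadjusted p of 0.05.

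The autosomal pattern was alike in sign. Mean log2 ratios had the same sign in both gates on 15 of 19 autosomes, and the largest gap between gates was 0.191. Chromosome 3 had the highest mean ratio in both gates, with 0.36, 0.33 and 0.42 in EpCAM+ cells and 0.59, 0.49 and 0.42 in GFP+EpCAM+ cells of mice 1, 2 and 3. Chromosome 4 lay below the CD45+ level, with -0.44, -0.42 and -0.27 in EpCAM+ cells and -0.37, -0.42 and -0.41 in GFP+EpCAM+ cells. Chromosome 14 was the only autosome whose gates did not overlap, 1 of 19 or 5.26%, with -0.32, -0.35 and -0.20 in EpCAM+ cells and -0.37, -0.41 and -0.41 in GFP+EpCAM+ cells. Chromosomes 15 and 11 had the widest gaps, both with overlap.

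**Figure D4:**
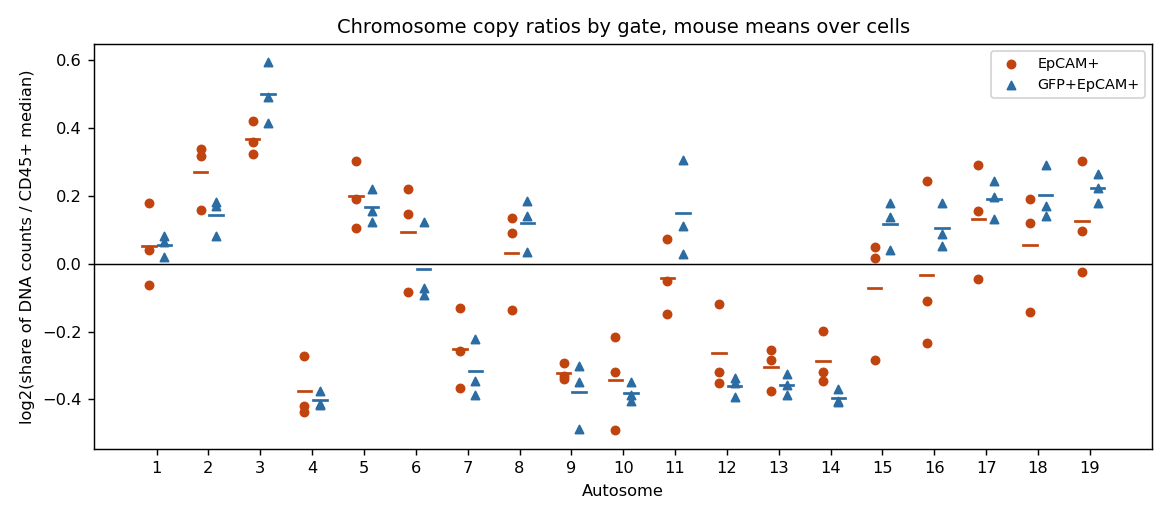
Mean log2 ratio of each autosome's share of DNA counts to the CD45+ median, with 3 mouse values per gate (EpCAM+ circles to the left, GFP+EpCAM+ triangles to the right) and a line at the mean. Chromosome 3 lies highest and chromosomes 4, 9 and 10 lie low in both gates.

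The mean X chromosome share of DNA was lower in EpCAM+ than in GFP+EpCAM+ cells in 3 of 3 mice. Counts in the 267 X bins per 100 autosomal counts were 3.49, 2.498 and 3.12 in EpCAM+ cells of mice 1, 2 and 3 and 4.13, 4.03 and 3.89 in GFP+EpCAM+ cells. The gates did not overlap, and the means were 3.04 ± 0.503 in EpCAM+ cells and 4.01 ± 0.121 in GFP+EpCAM+ cells (SD, n = 3 each), with p = 0.1 in the exact permutation test, the smallest that 3 against 3 mice allow. CD45+ cells had 2.82 ± 0.0245 and GFP+ cells of the primary tumour 3.15 ± 0.708 (SD, n = 3 each). With at least 200000 DNA counts the values were 3.47, 2.19 and 3.39 in 17 EpCAM+ cells and 4.13, 4.03 and 3.30 in 23 GFP+EpCAM+ cells, so EpCAM+ mice 1 and 3 then lay above GFP+EpCAM+ mouse 3, and the exact permutation p was 0.3.

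Each gate held cells of higher and of lower X share. A share of at least 3.5 was found in 7 of 22 EpCAM+ cells and 20 of 27 GFP+EpCAM+ cells. By mouse these were 5 of 10, 0 of 6 and 2 of 6 EpCAM+ cells and 8 of 10, 6 of 8 and 6 of 9 GFP+EpCAM+ cells. GFP+ cells of the same tumours had such a share in 22 of 26, 0 of 14 and 3 of 23 cells. In mouse 2, then, the EpCAM+ and GFP+ gates each held 0 cells at that share. Xist, the RNA that coats an inactive X, had levels of 2.51, 1.52 and 2.36 in EpCAM+ cells and 1.58, 1.25 and 0.45 in GFP+EpCAM+ cells, with overlap, and reached 100 CPM in 2 of 25 EpCAM+ cells and 0 of 31 GFP+EpCAM+ cells. The Y chromosome, covered by 3 bins, had 0.0256 ± 0.00606 counts per 100 autosomal counts in EpCAM+ cells and 0.0149 ± 0.00725 in GFP+EpCAM+ cells (SD, n = 3 each; exact permutation p = 0.2).

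**Figure D5:**
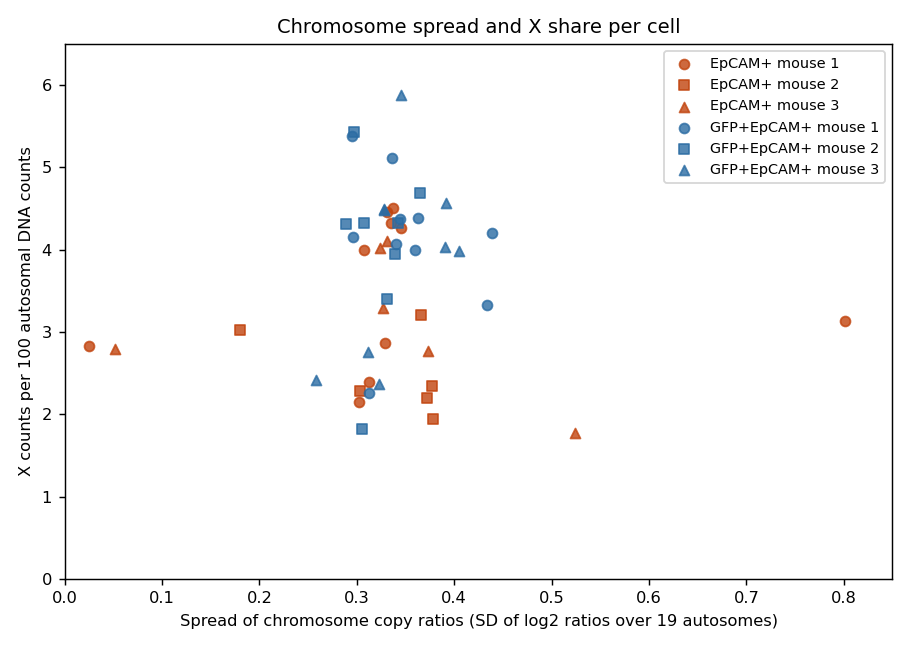
X chromosome counts per 100 autosomal counts against the spread of chromosome copy ratios, for 22 EpCAM+ and 27 GFP+EpCAM+ cells with at least 50000 DNA counts, with a symbol for each mouse. Most cells have a spread near 0.3 to 0.4, 2 EpCAM+ cells lie under 0.1, and GFP+EpCAM+ cells are mostly above an X share of 3.5.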

How the data were processed

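Single cells were sorted from primary tumours, and their RNA and DNA were amplified and read as 76 bp single reads, per the labels' protocols. The authors deposited an RNA table of expected counts per gene symbol (24424 genes after 92 spike-in and 4 repeated-symbol rows were left out) and a DNA table of raw counts in 5000 bins. The submitters' processing notes name STAR, kallisto, Bowtie 1.0 and mm9, with no role given, and no coordinates or sequences were used. In the RNA file, 97.4% of values are whole numbers.

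From the counts, CPM per cell and the mean of log2(CPM + 1) over the cells of a mouse were computed, and the 6 mouse values of both gates were tested with limma 3.58.1 (trended empirical Bayes, Benjamini-Hochberg adjusted p). A fold on this scale understates changes of low genes. Each cell counted alike within its mouse in the limma test. Means over cells were used there because sums are ruled by few cells: 1 cell held 63.2% of the EpCAM+ sum of mouse 2. As alternatives, edgeR 4.0.16 and DESeq2 1.42.0 were run on sums of counts, rounded to whole numbers. Single values were compared by exact two-sided permutation tests over 3 mice a gate. The limma step was also run on simulated counts with planted changes. The simulated mice of a gate shared the same gene means, so that run does not show how the test behaves with differences between mice.

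Named genes were up to 12 a direction, called or filled up by smallest unadjusted p among genes without overlap and at least 10 CPM, with predicted genes left out, plus Epcam, Krt19, Krt8, Vim, Ptprc and Xist, and up to 4 members of each of 39 gene lists. Some genes that the rule names are not reported here. The cells and lists were chosen with earlier results of these data known, and the olfactory receptor gauge after the data were seen. Mouse numbers mark the same animal. The deviations of the gates from their means correlated with r = 0.37, 0.07 and -0.04 across genes in mice 1, 2 and 3. Between different mice r lay between -0.37 and 0.30, so the same-mouse values of mice 2 and 3 did not stand out. Of 184 pairs of cells of a gate and mouse, none agreed within sampling noise in DNA counts (lowest chi-square per degree of freedom 9.20). The precision is set by 3 mice a gate and by 6 to 12 cells a mouse. Alternatives were other tools, pseudocounts, filters on cells and genes, cells thinned to 50000 counts, all 4 primary sorts in 1 fit, the mouse as a block and each mouse left out.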

Additional observations from a re-analysis of the deposited data

How the results depend on the processing

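In limma, 0 genes were called in either direction. DESeq2 on sums called 389 genes higher and 662 lower in EpCAM+ cells. The replicate block for the mouse called 2 higher and 3 lower. A pseudocount of 10, and cells of at least 2000 genes and 50000 counts, each called 1 lower. Leaving out a mouse gave 0 to 1 higher and 0 to 2 lower, the calls (Malat1, Krt18 and Spp1) being made without mouse 2. The other alternatives called 0. The median difference of all genes, 0.32 in limma, was -0.18 with edgeR's TMM scaling, 0.42 without it and 0.13 with DESeq2's size factors. Of 992 values over 62 named genes and their alternatives, 943 kept their direction and stayed uncalled, 23 became called and 26 changed sign, among them Sparc with edgeR (-3.95), DESeq2 (-3.71) and edgeR without TMM (-3.26). Ccl2 gave -1.91, -1.43 and -1.32, and Ptprc -1.31, -0.85 and -0.86 in the same order. H2-Ab1 gave -0.10 and Hmgn3 -0.70 in edgeR, and Hmgn3 -0.26 without TMM. Epcam gave 0.17, Fos 0.42 and Krt19 0.23 in edgeR without TMM, and Fos 0.0066 and Krt19 0.058 in DESeq2. Without the cells of high olfactory receptor counts, an alternative chosen after seeing the data, Krt19 gave 0.51, Pecam1 -0.092, Vim 0.81 and Xist -0.37. Vim gave 0.027 with a pseudocount of 0.1, from -0.93 (without mouse 2) to 0.46 (without mouse 3) with a mouse left out, and 0.13 without the 2 cells of low chromosome spread, a choice also made after seeing the data, and Epcam gave 0.21 without mouse 3. Taking the median over cells, the difference in chromosome spread was 0.0127 and that in Y share 0.00318. The causes were not tested. The number of mice and the 13906 and 12787 counts of the shallowest EpCAM+ and GFP+EpCAM+ cells limit what could be seen.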

Other observations

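Proliferation and Wnt pathway genes had positive medians, and none passed the adjusted test in limma. Proliferation genes had positive differences for 26 of 28 members, with a median of 1.01, and 0 members had an unadjusted p under 0.05 in limma. The median level of this list was 2.41. Among all 6702 genes with a mean level from 1 to 3, 68.9% of differences were positive with a median of 0.42. Of these genes 693 were higher and 74 lower at that p. Mki67, a marker of cycling cells, had levels of 2.62, 3.94 and 5.99 in EpCAM+ cells and 2.45, 2.89 and 1.77 in GFP+EpCAM+ cells, so the gap lay in mouse 3, and 4 of 25 EpCAM+ cells and 3 of 31 GFP+EpCAM+ cells reached 100 CPM. Of 8 Wnt pathway genes 8 were positive with a median of 1.03, and 5 did not overlap on the higher side, beside 75.2% of all genes tested being positive and 18.5% not overlapping on that side. Tcf7, a transcription factor of the pathway, had levels of 1.27, 3.10 and 2.59 in EpCAM+ cells and 0.37, 1.17 and 0.37 in GFP+EpCAM+ cells, and its difference was 1.69, or 2.34 without the cells of high olfactory receptor counts. Lgr4, a receptor that raises Wnt signalling, had levels of 3.95, 4.04 and 2.89 in EpCAM+ cells and 2.64, 1.84 and 1.41 in GFP+EpCAM+ cells.

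Secreted defence proteins differed in direction, and none passed the adjusted test in limma. Slpi, a protease inhibitor of mucous surfaces, had levels of 0.16, 4.21 and 4.60 in EpCAM+ cells and 0.06, 0.72 and 0.17 in GFP+EpCAM+ cells. Saa3, an acute phase protein, had levels of 0.39, 5.44 and 4.33 in EpCAM+ cells and 0.04, 1.60 and 0.15 in GFP+EpCAM+ cells. Lcn2, which binds bacterial iron carriers, had levels of 2.42, 1.74 and 1.54 in EpCAM+ cells and 2.77, 6.14 and 3.23 in GFP+EpCAM+ cells, and reached 100 CPM in 2 of 25 EpCAM+ cells and 10 of 31 GFP+EpCAM+ cells. The matrix protease Mmp7 reached 100 CPM in 0 of 25 EpCAM+ cells and 6 of 31 GFP+EpCAM+ cells. Gclm, of glutathione synthesis, had levels of 1.38, 2.39 and 0.41 in EpCAM+ cells and 2.97, 2.76 and 4.10 in GFP+EpCAM+ cells.

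Markers of other cell types had positive medians as well: 0.45 for endothelial, 0.28 for islet, 0.29 for acinar, 0.47 for tuft, 0.58 for mesothelial, 0.33 for neutrophil, 0.27 for T and natural killer, 0.48 for B, 0.44 for dendritic and 0.17 for erythroid genes, beside 0.32 for olfactory receptors. Tek, a receptor of endothelial cells, reached 100 CPM in 0 of 25 EpCAM+ cells and 0 of 31 GFP+EpCAM+ cells, and its difference of 1.30 was 0.05 without the cells of high olfactory receptor counts. Pecam1, an adhesion protein of endothelium, gave 1.25 in all cells and -0.09 without those cells.

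The medians of the other lists were 0.82 for MHC class II, -0.34 for MHC class I, 0.28 for mesenchymal, 0.26 for classical, 0.42 for basal-like, -0.06 for defence, 0.42 for interferon, -0.14 for hypoxia, -0.14 for heat shock, -0.10 for adhesion, 0.08 for ERK target, 0.14 for p53 target, 0.26 for tumour genotype, 0.75 for YAP target, -0.29 for Nrf2 target and 0.58 for Y-linked genes, and each of these lists had 0 members past the adjusted threshold. Uty, the Y-linked gene of smallest unadjusted p, had at least 1 count in 13 of 25 EpCAM+ cells and 4 of 31 GFP+EpCAM+ cells. As a background, 21.99% of pairs of an olfactory receptor and an EpCAM+ cell were counted, and 15.27% in GFP+EpCAM+ cells. All 4 Y-linked genes had positive differences, 1 had an unadjusted p under 0.05 in limma, and all 4 overlapped. Their summed CPM averaged 48.68 ± 34.25 in EpCAM+ cells and 57.97 ± 77.01 in GFP+EpCAM+ cells (SD, n = 3 mice each).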
